A study of Mus musculus with 18 samples.

Results

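Wdfy1 was measured by 5 probe sets of the mouse array, which are all the probe sets whose single gene symbol in the platform annotation is Wdfy1, out of 34945 probe sets with 1 symbol and 45101 in all. They carry the identifiers 1424749_at, 1435588_at, 1437358_at, 1447543_at and 1453426_a_at. In Affymetrix naming, the ending _a_at marks a probe set that recognises several transcripts of a gene. The gene was chosen for description because its mean over these probe sets was lower after 2 days of MPTP in both regions, so its 2 day differences from saline are given without a test.

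The protein encoded by Wdfy1, also known as FENS-1 or ZFYVE17, carries WD repeats and a FYVE domain, a zinc finger that binds the lipid PI3P on early endosomes. PI3P is made by the lipid kinase Pik3c3 with its partner Pik3r4 and is removed by phosphatases of the myotubularin family. WDFY1 is also known as an adaptor that brings the signalling protein TRIF, the product of Ticam1, to the Toll-like receptors TLR3 and TLR4. MPTP is turned in the brain into a compound that enters dopamine neurons through their transporter and blocks complex I of mitochondria.

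All mice were adult C57Bl/6 animals carrying the hTH-GFP transgene, a green fluorescent reporter under human tyrosine hydroxylase sequences, in control and treated groups alike. The drug was given at 4 mg/kg over 2 or over 10 days, controls had saline over 10 days, and the brains were taken 7 days after injections ended. Laser capture took dopamine neurons of the substantia nigra (SN), the region most affected in Parkinson disease, or of the ventral tegmental area (VTA), and each of the 6 groups of region and treatment holds 3 arrays. Controls are named untreated in the descriptions of the arrays, but the protocol has them injected with saline. The 2 day groups differ from their controls in the drug and also in how long injections went on, which cannot be told apart. The labels call the arrays of a group biological replicates. They give no substrain, and do not say how neurons were recognised, how many mice an array holds, whether an SN and a VTA array share a mouse, or when arrays were processed.

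Every value below is a log2 signal relative to that probe set's own median over the 18 arrays, since the deposited values are centred in that way. They give differences between arrays and no absolute level, so levels cannot be compared between probe sets or genes, and the presence of dopamine neuron markers cannot be checked. The median absolute deviation of an array over all probe sets was 0.269 for array 1 of VTA after 2 days and 0.235 for SN saline array 1, and 0.123 to 0.204 for the others. No arrays were identical, and array pairs correlated at -0.225 to 0.377 across all probe sets.

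In both regions 3 of the 5 Wdfy1 probe sets were far lower on the arrays of 2 days of MPTP than on all other arrays, and the other 2 were not. On probe set 1435588_at the 3 SN saline arrays read -0.016, -0.018 and 0.46 and the 3 SN arrays after 2 days -1.90, -1.40 and -1.37. After 10 days the SN arrays read 0.13, 0.25 and -0.48. The 2 day arrays stood apart below both other SN groups, which overlapped each other.

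In VTA the same probe set read 0.13, 0.61 and 0.29 on the saline arrays, -1.0, -1.35 and -1.75 after 2 days, and 0.016, 0.099 and 0.10 after 10 days. Its VTA means were 0.34 ± 0.24 (SD, n = 3) in saline, 0.073 ± 0.049 after 10 days and -1.37 ± 0.37 after 2 days. The 2 day difference from saline was -1.71 ± 0.24 (SE) in VTA and -1.70 ± 0.24 in SN, or 3.27-fold and 3.24-fold lower. The difference between the responses of the regions was -0.014 (95% confidence interval -0.72 to 0.69), 0.35 after a repeated quantile normalisation and -0.30 with array weights.

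Probe set 1424749_at read -0.29, 0.27 and 0.075 on SN saline arrays, -0.62, -0.91 and -1.34 after 2 days, and 0.048, -0.048 and 0.51 after 10 days. In VTA it read 0.36, 0.55 and 0.15 in saline, -1.79, -1.40 and -1.0 after 2 days, and 0.16, -0.087 and 0.13 after 10 days. All 2 day arrays were again the lowest, with the VTA arrays reaching further down than the SN arrays and overlapping them. Its 2 day difference was -0.98 ± 0.23 in SN, 1.97-fold lower, and -1.75 ± 0.23 in VTA, 3.36-fold lower. The difference between the responses was -0.77 (95% interval -1.47 to -0.070), -0.42 without the 2 arrays of widest spread and -0.21 after a repeated quantile normalisation.

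On 1437358_at the SN arrays read 0.18, 0.024 and 0.048 in saline, -1.20, -1.47 and -1.01 after 2 days, and 0.077, -0.024 and 0.070 after 10 days. The VTA arrays read -0.54, 0.13 and 0.24 in saline, -3.06, -1.48 and -1.54 after 2 days, and 0.12, -0.32 and 0.15 after 10 days. The value of -3.06 is the lowest reading of any Wdfy1 probe set, and it comes from the array of widest spread. The 2 day difference was -1.31 ± 0.32 in SN, 2.48-fold lower, and -1.97 ± 0.32 in VTA, 3.91-fold lower, and in VTA it was -1.45 without that array. Between regions after 2 days this probe set differed by -0.80 (95% interval -1.49 to -0.11) and by -0.28 without that array. Its VTA arrays of 2 days all lay below those of SN, which 3.95% of all probe sets did.

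The remaining probe sets showed no such step. On 1447543_at the 2 day arrays ran from -0.21 to 0.30 and the 12 others from -0.32 to 0.54, and on 1453426_a_at they ran from -0.10 to 0.23 against -0.32 to 0.54. For 1447543_at the 2 day difference from saline was -0.11 ± 0.20 in SN and -0.25 ± 0.20 in VTA. For 1453426_a_at it was 0.042 ± 0.22 in SN and 0.015 ± 0.22 in VTA, with a 95% interval of -0.46 to 0.49 in VTA. Without absolute levels it is not known whether 1447543_at and 1453426_a_at had signal above background.

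**Figure D1:**
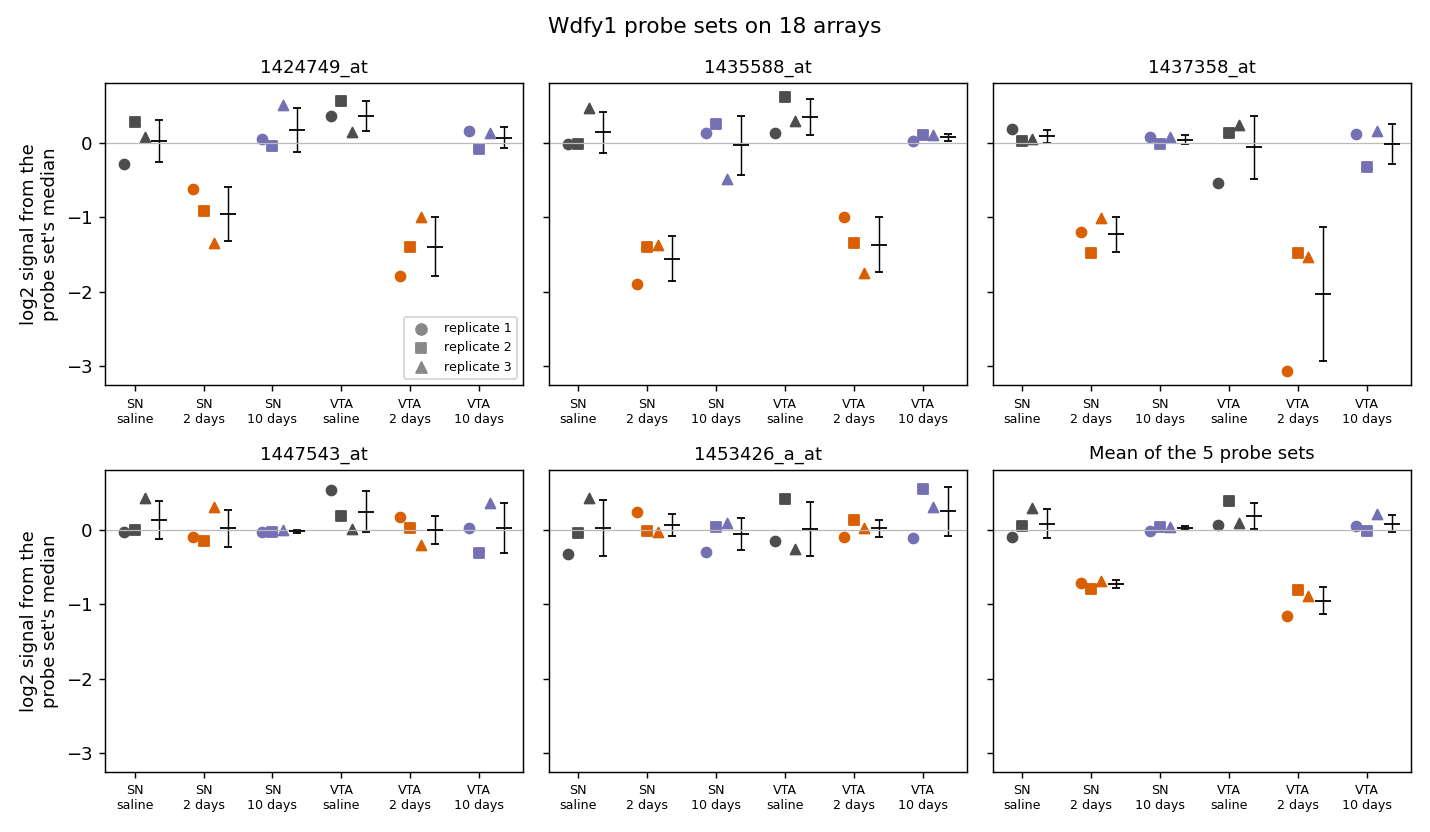
Log2 signal relative to the probe set's median (vertical axis) of each Wdfy1 probe set and of their mean on the 18 arrays, by group (horizontal axis). Symbols mark replicate numbers, and bars beside them the group mean ± SD (n = 3). The 2 day arrays lie below all others on 1424749_at, 1435588_at and 1437358_at, and among them on 1447543_at and 1453426_a_at.

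Counted over arrays, 3 of 5 probe sets had all SN arrays after 2 days below all SN saline arrays, and the same 3 did so in VTA. Of all 34945 probe sets, 7.31% did so in SN and 4.66% in VTA. The requirement that all 6 arrays of 2 days of MPTP lie below all 12 others was met by 15 probe sets, or 0.0429%, of which 3 were Wdfy1 probe sets. Ranked by the gap between the highest 2 day array and the lowest other array, these 3 held the first 3 ranks of the 15, with gaps of 0.52 for 1435588_at, 0.46 for 1437358_at and 0.34 for 1424749_at. The next in rank was a probe set of the clone-named gene A030001D20Rik at 0.27, chosen here for its rank. All these counts use the contrast for which the gene was picked, and are a description.

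Among the lowest differences of the whole array, 1437358_at ranked 7 of 34945 in VTA after 2 days, with 1424749_at at rank 17 and 1435588_at at rank 19. In SN after 2 days 1435588_at ranked 14, 1437358_at 63 and 1424749_at 213. The probe sets 1447543_at and 1453426_a_at ranked 11901 and 20609 in SN and 6530 and 18720 in VTA. The comparisons in SN and VTA share no arrays, although they may share mice. In each of them the same 3 probe sets were among the lowest 213 of all probe sets, and the other 2 were not. The bound of 213 is itself the highest rank among these 3. Because the gene was chosen for low values in both regions, this likeness of the regions is a description only.

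**Figure D2:**
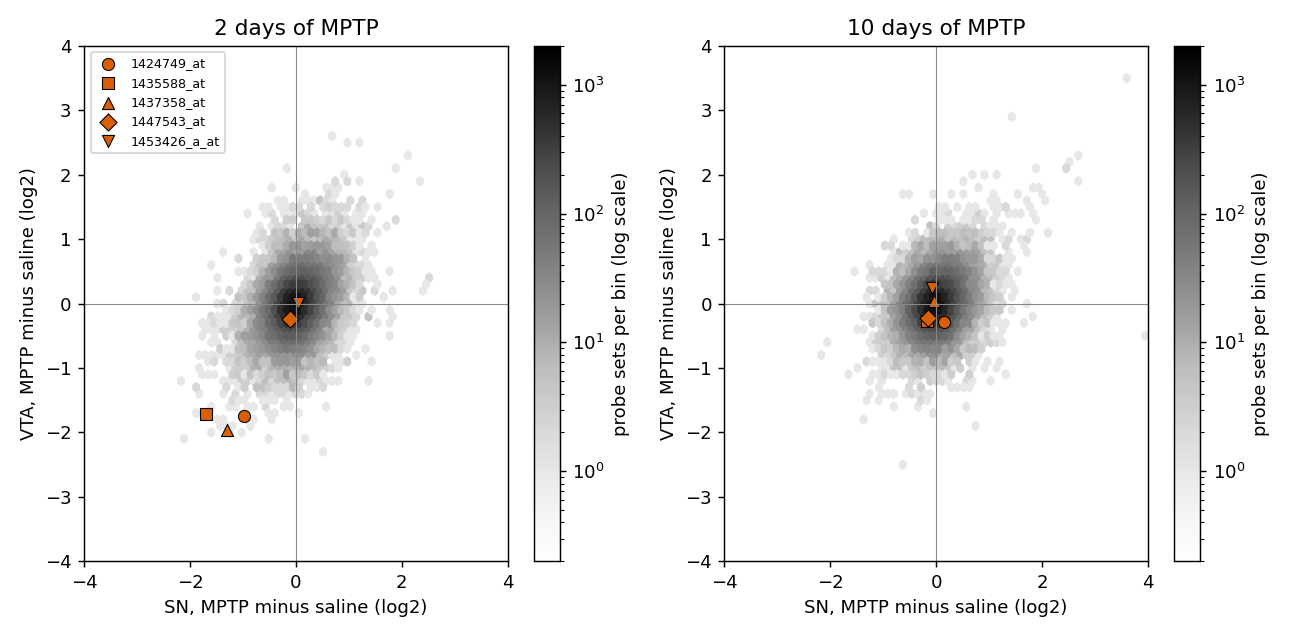
Difference between MPTP and saline in SN (horizontal axis, log2) against that in VTA (vertical axis, log2) for all probe sets with 1 symbol, after 2 days and after 10 days, with the number per bin in grey on a log scale and Wdfy1 probe sets as orange symbols. In the panel of 10 days 3 probe sets beyond 4 on an axis are not drawn. After 2 days 3 orange symbols lie at the lower left edge, and after 10 days all 5 lie between -0.29 and 0.24 on both axes.

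After 10 days of MPTP no Wdfy1 probe set stood away from saline in SN. The differences from saline were 0.15 ± 0.23 for 1424749_at, -0.18 ± 0.24 for 1435588_at and -0.045 ± 0.32 for 1437358_at, and the arrays overlapped for all 5 probe sets, where 5.69% of all probe sets had every 10 day array below saline. In VTA they were -0.29 ± 0.23, -0.27 ± 0.24 and 0.043 ± 0.32. Only 1435588_at had all 10 day VTA arrays below saline, which 4.76% of all probe sets had, and its 95% interval ran from -0.77 to 0.23. These comparisons use the saline arrays that also entered the choice of the gene, and no p-value is given for them.

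For the mean of the 5 probe sets, the 10 day difference had 95% intervals of -0.34 to 0.23 in SN and -0.38 to 0.19 in VTA. Against the 2 day arrays, the 10 day arrays of 1435588_at were higher by 1.52 ± 0.24 in SN and 1.44 ± 0.24 in VTA. For 1437358_at they were higher by 1.27 ± 0.32 and 2.01 ± 0.32, and for 1424749_at by 1.13 ± 0.23 and 1.46 ± 0.23. On these 3 probe sets the arrays of 10 days all lay above those of 2 days in both regions. That follows from their 2 day arrays lying below all other arrays, as given above, and adds no further result. Of all probe sets, 5.48% did so in SN and 4.86% in VTA. The 2 day arrays entered the choice of the gene, and no p-value is given for these differences. The longer treatment thus went with signals near those of saline and the shorter with the low ones, and the mice of the 2 durations are different animals.

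**Figure D3:**
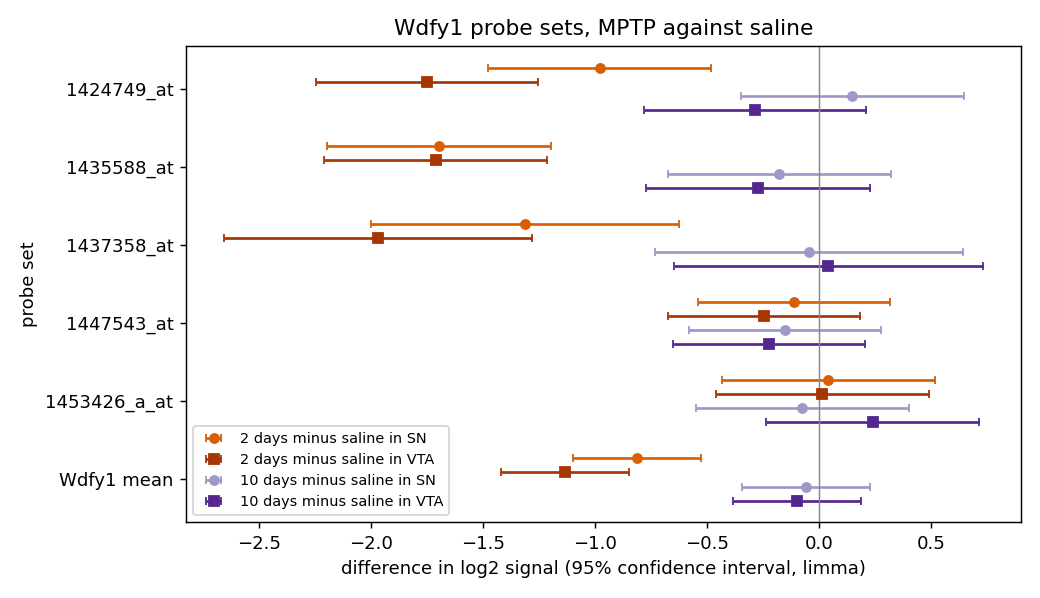
Difference in log2 signal from saline (horizontal axis) of each Wdfy1 probe set and of their mean (vertical axis), with 95% confidence intervals from limma, after 2 and 10 days of MPTP in SN and VTA. The intervals of 2 days lie below 0 for 1424749_at, 1435588_at, 1437358_at and the mean, and the intervals of 10 days cover 0 in every row. Because the gene was chosen for its low 2 day values, the place of the 2 day intervals is a description and no test.

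The difference between regions in saline uses arrays that entered the choice of the gene, and it is given without a p-value. In saline, VTA minus SN was 0.33 ± 0.23 for 1424749_at, 0.20 ± 0.24 for 1435588_at, -0.14 ± 0.32 for 1437358_at, 0.11 ± 0.20 for 1447543_at and -0.014 ± 0.22 for 1453426_a_at. The arrays of the regions overlapped on all 5 probe sets. The mean of the probe sets differed by 0.099 (95% interval -0.19 to 0.38).

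The arrays of 10 days did not enter the choice, and their region difference was tested. After 10 days the region difference of the mean was 0.058 (95% interval -0.23 to 0.34, limma adjusted p = 1). Limma called 0 of 5 probe sets, where it called 0% of all probe sets, with 0 at an unadjusted p under 0.05, where 2.81% of all were. The largest of these was 0.30 ± 0.22 for 1453426_a_at, and the others lay between -0.10 and 0.11. With 3 arrays a group, region differences of a size within the interval of the mean remain compatible with the arrays.

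Ordered by the mean of the 5 probe sets, the groups ran from VTA saline at 0.18 ± 0.17 (SD, n = 3) through SN saline at 0.078 ± 0.19, VTA after 10 days at 0.077 ± 0.12 and SN after 10 days at 0.019 ± 0.029 to SN after 2 days at -0.73 ± 0.052 and VTA after 2 days at -0.96 ± 0.18. Neighbours among the first 4 groups overlapped and differed by less than the larger of their SDs. Between SN after 10 days and SN after 2 days lay a step of 0.75 ± 0.13 (SE). On this mean the arrays of the lowest groups did not overlap, with SN from -0.79 to -0.69 and VTA from -1.16 to -0.82. No share of all gene means is given beside this separation. Among single probe sets only 1437358_at did not overlap, which 3.95% of all probe sets did not with VTA the lower. On 1435588_at VTA was higher, by 0.19 ± 0.24. The difference of the mean between these groups was -0.22, with a 95% interval of -0.51 to 0.063, and 0.054 after a repeated quantile normalisation.

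The 3 lower probe sets varied together over all arrays but not over the arrays outside the 2 day groups. Over the 18 arrays the Pearson correlation was 0.79 between 1424749_at and 1435588_at, 0.89 between 1424749_at and 1437358_at, and 0.76 between 1435588_at and 1437358_at. Over the 12 arrays outside the 2 day groups the same correlations were -0.032, -0.081 and 0.047. Correlations of 1447543_at and 1453426_a_at with these 3 probe sets over the 18 arrays ran from 0.051 to 0.31, and with each other it was 0.022. Over the 12 arrays they ran from -0.19 to 0.38, and with each other it was 0.083. The points share the 18 arrays and their normalisation, and the arrays fall into separate clusters, so these values are a description.

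Within the 2 day groups, the order of arrays differed between probe sets. SN array 1 was the highest of its group on 1424749_at and the lowest on 1435588_at, and VTA array 1 was the lowest on 1424749_at and 1437358_at and the highest on 1435588_at. With group means removed, 1424749_at and 1435588_at had a correlation of -0.61 over the 18 arrays, 1435588_at and 1437358_at one of -0.31, and 1424749_at and 1437358_at one of 0.35.

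**Figure D4:**
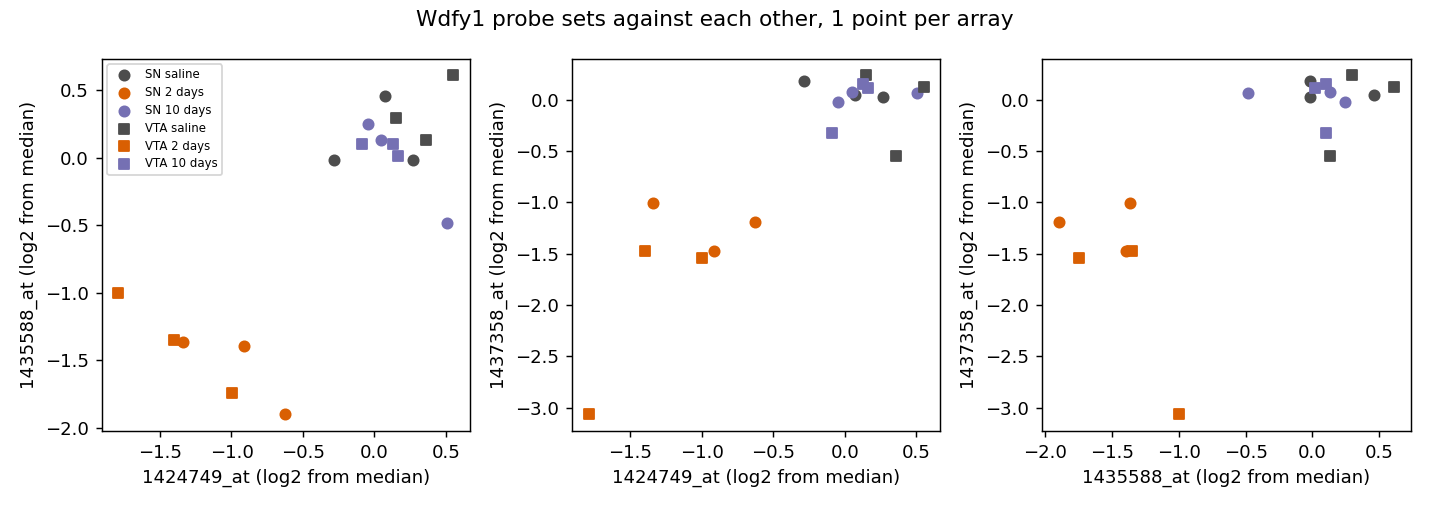
Log2 signal relative to the median of 1 Wdfy1 probe set against another (both axes), for the 3 pairs among 1424749_at, 1435588_at and 1437358_at, with 1 point per array, coloured by treatment, circles for SN and squares for VTA. The 6 orange points of 2 days form a cluster apart at the lower left in each panel, and the other 12 points form a cloud near 0 without a trend, with correlations of -0.081 to 0.047.

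Other members of the Wdfy family were close to saline in SN after 2 days. Wdfy2, which encodes another protein of WD repeats with a FYVE domain, was at -0.14 ± 0.16 in SN and -0.43 ± 0.16 in VTA (limma adjusted p = 0.519), where its 3 arrays of 2 days lay below the 3 saline arrays. The larger relatives were at 0.011 ± 0.12 in SN and -0.061 ± 0.12 in VTA for Wdfy3, a scaffold of selective autophagy, and at -0.016 ± 0.20 and 0.23 ± 0.20 for Wdfy4, which acts in cross-presentation by dendritic cells. Limma called 0 of these 3 relatives in either region after 2 or 10 days, and Wdfy2 in VTA after 2 days was the only one at an unadjusted p under 0.05. Among all genes limma called 0% in SN and 0.011% in VTA after 2 days, and 0.0055% and 0.011% after 10 days.

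Genes next to Wdfy1 were closer to saline than Wdfy1 after 2 days. The 5 nearest protein-coding genes with a probe set on each side, in the gene order of a RefSeq table, were Acsl3, Utp14b, Kcne4, Scg2 and Ap1s3 on one side and Mrpl44, Fam124b, Cul3, Dock10 and Irs1 on the other. Their 2 day differences ran from -0.29 to 0.097 in SN, with 7 of 10 lower and a median of -0.061, where the median of all genes was -0.027. In VTA they ran from -0.52 to 0.12, with 9 of 10 lower and a median of -0.25, where the median of all genes was -0.0082. Limma called 0 of the 10 in either region after 2 days, with 0 in SN and 1 in VTA at an unadjusted p under 0.05, where 6.65% of all genes were in SN and 8.06% in VTA. The closest on each side were Ap1s3, an adaptor complex subunit, at -0.15 ± 0.23 in SN and -0.45 ± 0.23 in VTA, and the mitochondrial ribosomal protein gene Mrpl44 at -0.055 ± 0.15 and 0.12 ± 0.15.

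Of genes whose transcripts are known to differ between C57BL/6 substrains, the mitochondrial transhydrogenase gene Nnt was at -0.15 ± 0.14 in SN and 0.0060 ± 0.14 in VTA after 2 days. The GABA receptor gene Gabra2 was at -0.0085 ± 0.17 and -0.043 ± 0.17. Limma called 0 of the 2, where it called 0% of all genes in SN and 0.011% in VTA. At an unadjusted p below 0.05 were 0, where 6.65% and 8.06% of all genes were. Counts over 2 genes show little beside such shares, and a part of substrain in the Wdfy1 difference was not tested.

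Genes of PI3P metabolism and binding gave no call after 2 days. Among genes of PI3P-binding proteins and early endosomes, 13 of 24 were higher in SN and 11 of 24 in VTA, with medians of 0.0066 and -0.050. Eea1, a FYVE protein that tethers early endosomes, was at 0.17 ± 0.16 in SN and 0.52 ± 0.16 in VTA (adjusted p = 0.406), and the FYVE and PH domain gene Plekhf1 at 0.0021 ± 0.41 and -0.84 ± 0.41. Zfyve26, a FYVE protein gene, was at 0.49 ± 0.31 and 0.33 ± 0.31. Among 21 kinases and phosphatases of PI3P and their partners, 14 were higher in SN and 13 in VTA, with medians of 0.027 and 0.10. The kinase partner gene Pik3r4 was at 0.30 ± 0.25 and 0.48 ± 0.25, and the myotubularin gene Mtmr7 at 0.94 ± 0.39 and 0.58 ± 0.39. The myotubularin genes Mtmr1 and Mtmr3 were at 0.054 ± 0.24 and 0.13 ± 0.19 in SN, and at -0.53 ± 0.24 and 0.48 ± 0.19 in VTA. Limma called 0 in each list. At an unadjusted p under 0.05 were 0 genes of the first list and 1 of the second in SN, and 2 of each in VTA, where all genes gave 6.65% in SN and 8.06% in VTA.

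Genes of TLR3 and TLR4 signalling also gave no call, with 15 of 22 lower after 2 days in each region and medians of -0.10 in SN and -0.077 in VTA. Over all genes 55.3% were lower in SN and 51.6% in VTA. Ticam1, which encodes the TRIF adaptor that WDFY1 binds, was at -0.15 ± 0.21 in SN and -0.48 ± 0.21 in VTA (adjusted p = 0.583). The chemokine gene Ccl5, a target of this signalling, was at -0.81 ± 0.37 and -0.53 ± 0.37, and Ly96, which encodes the partner of TLR4, at -0.61 ± 0.44 and -0.44 ± 0.44. At an unadjusted p under 0.05 were 2 of these 22 genes in SN and 1 in VTA, against 6.65% and 8.06% of all genes, and limma called 0 in both.

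After 10 days limma again called 0 genes of these 3 lists in either region. At an unadjusted p under 0.05 were 4 of their genes in SN and 2 in VTA, where all genes gave 5.57% and 5.41%. Plekhf1 was at -0.52 ± 0.41 in SN and -1.24 ± 0.41 in VTA (adjusted p = 0.711). Ticam1 was at -0.59 ± 0.21 in SN (adjusted p = 0.84) and 0.018 ± 0.21 in VTA, and Mtmr7 was at 1.01 ± 0.39 in SN (adjusted p = 0.886) and 0.50 ± 0.39 in VTA.

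Over the 18 arrays, the genes whose pattern was most like the mean of the Wdfy1 probe sets, among 16310 genes with a name other than a clone's, had Pearson correlations of 0.81 to 0.85. Bloc1s5, a subunit of a complex that forms lysosome-related organelles, had 0.85 and was at -0.53 ± 0.13 in SN and -0.42 ± 0.13 in VTA after 2 days. The scaffold gene Cnksr3, also at 0.85, was at -2.17 ± 0.57 and -2.08 ± 0.57. Pltp, which encodes a phospholipid transfer protein, had 0.84 and was at -0.36 ± 0.16 and -0.56 ± 0.16. Vps41, a subunit of a complex for fusion with lysosomes, also had 0.84 and was at -0.64 ± 0.17 in both regions. The calcium-binding protein gene S100a16, at 0.81, was at -0.42 ± 0.18 and -0.63 ± 0.18.

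The genes of most opposite pattern were the inducible heat shock protein gene Hspa1b with a correlation of -0.93, the circadian clock gene Per2 with -0.88 and the monooxygenase gene Fmo2 with -0.87. Hspa1b was at 0.97 ± 0.24 in SN and 1.31 ± 0.24 in VTA after 2 days, Per2 at 1.03 ± 0.17 and 0.71 ± 0.17, and Fmo2 at 1.08 ± 0.17 and 0.82 ± 0.17. All 8 genes were picked for likeness on the same 18 arrays, and no test of them is given.

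**Figure D5:**
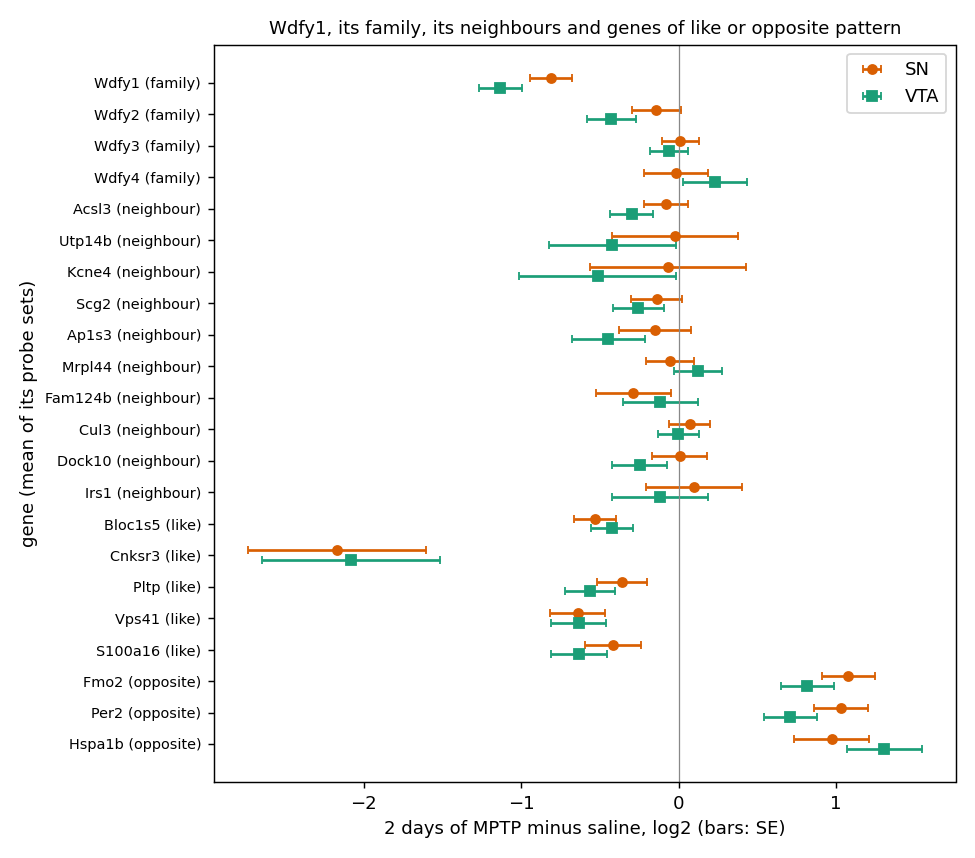
Difference between 2 days of MPTP and saline (horizontal axis, log2, bars are SE) in SN and VTA for Wdfy1, its family, its 10 neighbours and the genes of most like and most opposite pattern (vertical axis), each as the mean of its probe sets. Wdfy1 lies at -0.81 and -1.13, its family and neighbours between -0.52 and 0.23.

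Markers of dopamine neurons were lower beside Wdfy1 after 2 days. Of 12 markers, 12 were lower in SN, with a median of -0.96, and 11 in VTA, with a median of -0.50. The shares of all genes that were lower after 2 days are given above with TLR3 and TLR4 signalling. Limma called 0 of these markers, with 9 of 12 in SN and 3 of 12 in VTA at an unadjusted p under 0.05, where all genes gave 6.65% and 8.06%. Their mean per array ran from 0.33 to 0.96 in SN saline, from -0.53 to -0.12 after 2 days and from -0.17 to 0.26 after 10 days. In VTA it ran from -0.53 to 0.66, from -0.73 to 0.15 and from -0.36 to 0.51. In SN after 10 days 12 of 12 markers were lower, with a median of -0.49. No share of all lower genes is given beside this count, so it is not read further. The Wdfy1 mean was at -0.059 ± 0.13 in SN after 10 days, and its relation to these markers was not tested. In such samples of captured cells a smaller share of a cell type and less RNA per cell cannot be told apart.

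Markers of other cells gave lower medians in VTA than in SN for astrocytes, microglia, oligodendrocytes and endothelium. For the difference between the responses of the regions limma called 0 of these 8 astrocyte, 10 microglia, 7 oligodendrocyte and 7 endothelial markers. Of them 4 were at an unadjusted p under 0.05. No share of all genes is given for this comparison, so the count is not read further. Of 8 astrocyte markers 6 were higher in SN after 2 days, with a median of 0.29, and 1 in VTA, with a median of -0.16. Of 10 microglia markers 6 were lower in SN and 8 in VTA, with medians of -0.054 and -0.22. All 7 oligodendrocyte markers were lower in VTA, with a median of -0.45, and 6 in SN, with a median of -0.16. Medians were -0.033 in SN and -0.23 in VTA for 7 endothelial markers, and -0.039 and 0.016 for 3 markers of GABA neurons. Limma called 0 of these markers. At an unadjusted p under 0.05 were 3 astrocyte markers and 1 of GABA neurons in SN, and 2 astrocyte, 2 microglia and 3 oligodendrocyte markers in VTA, where all genes gave 6.65% in SN and 8.06% in VTA. The part of dopamine neuron number and of other cells in the Wdfy1 difference was not tested.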

How the data were processed

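RNA of the captured neurons was purified on columns, amplified as cDNA and labelled with biotin, per the labels' protocols. The authors deposited log2 signals of 45101 probe sets, RMA normalised in GeneSpring GX 10.0 per the series' design text. Each probe set's median over the 18 arrays was 0 to within 5e-07, a centring that no source states, so no filter on low values was possible. Of the background correction and genome build, no detail was given in the sources used here. Names came from the platform annotation (1 symbol for 34945 probe sets outside controls, several for 932, none for 9211), and averaging probe sets by symbol gave 18193 genes. A RefSeq table of GRCm38.p6, which held 99.74% of the symbols, was used for gene order only. 

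Probe sets and gene means were fitted with limma 3.58.1 in R 4.3.3 (lmFit, eBayes; 6 group means, 12 residual degrees of freedom), with Benjamini-Hochberg adjustment over all probe sets or genes and a threshold of 0.05. The fit was tested on simulated data. Figures used matplotlib 3.10.9. Replicate numbers came from the sample titles. Deviations of same-numbered SN and VTA arrays of a treatment correlated at 0.0989 to 0.166 in saline, 0.0623 to 0.23 after 2 days and 0.289 to 0.38 after 10 days. Every pair passed a limit of 0.1 only after 10 days. Over all treatments 7 of 9 same-numbered pairs were above 0.1, against 1 of 18 pairs of different number, so the regions may be paired in every treatment. The main fit and its intervals do not use the numbers, and a replicate block was run as an alternative. Members and gene lists were chosen with earlier results of these data known. Genes named from a list were among the 4 of largest difference in a comparison, which are not all named, beside the 5 genes of highest and 3 of lowest correlation with Wdfy1, and its neighbours. The region test in saline was planned, but its p-values are not given, since the saline arrays entered the choice of Wdfy1. Alternatives were other array scalings, array weights, replicate blocks, omitted arrays and other summaries of the probe sets.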

Additional observations from a re-analysis of the deposited data

How the results depend on the processing

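The region difference after 10 days gave no call under any alternative run, with adjusted p-values for the mean of 0.994 to 1. The mean of the 5 probe sets depended on the summary. The median of the probe sets gave -0.97 in SN and -1.35 in VTA for 2 days against saline. Probe sets taken alone, in the order 1424749_at, 1435588_at, 1437358_at, 1447543_at and 1453426_a_at, gave -0.98, -1.70, -1.31, -0.11 and 0.042 in SN and -1.75, -1.71, -1.97, -0.25 and 0.015 in VTA. For 10 days against 2 days they gave 1.13, 1.52, 1.27, -0.040 and -0.12 in SN and 1.46, 1.44, 2.01, 0.023 and 0.23 in VTA. After 10 days against saline, 1424749_at gave 0.15 in SN, and 1424749_at, 1435588_at, 1437358_at and 1453426_a_at gave -0.29, -0.27, 0.043 and 0.24 in VTA. VTA minus SN after 2 days was -0.44, 0.19, -0.80, -0.021 and -0.041, and the difference of the responses -0.77, -0.014, -0.66, -0.14 and -0.027. At 10 days 1424749_at gave -0.44 and 1453426_a_at 0.31 for the difference of the responses.

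Repeated quantile normalisation moved the mean to -1.05 in SN for 2 days against saline, to 0.97 for 10 against 2 days, to 0.054 for VTA minus SN after 2 days and to -0.013 for the difference of the responses. The last was -0.13 without the 2 arrays of widest spread. The cause was not tested. Leaving out single arrays, the mean ran from -0.90 to -0.71 in SN and -1.20 to -1.03 in VTA for 2 days, -0.15 to 0.045 and -0.16 to 0.0013 for 10 days, and 0.72 to 0.77 and 0.93 to 1.10 for 10 against 2 days. For VTA minus SN it ran from -0.0019 to 0.20 in saline, -0.29 to -0.12 after 2 days and -0.0067 to 0.11 after 10 days, and for the difference of the responses from -0.42 to -0.22 at 2 days and -0.14 to 0.060 at 10 days.

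With the replicate number as a block, the VTA minus SN differences of the mean stayed at 0.099 in saline and 0.058 after 10 days, the latter with an adjusted p of 1, and the block changed no call. A block of treatment and number, added after seeing the data, changed none either. Of the 18 arrays, 17 correlated best with their own number among the arrays of the other region under the same treatment. Values centred per probe set allowed no filter on low values, which was not run, and 3 arrays a group limit the precision.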
